A study of Mus musculus with 7 samples.

Results

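The cullins and the BTB-Kelch adaptor genes of the mouse testis are described here across 7 RNA-seq libraries. The 56 genes were chosen by name, as the protein-coding genes whose symbol begins with *Cul*, *Klhl*, *Kbtbd* or *Btbd* and a number, among 19719 genes listed. They comprise 8 *Cul*, 29 *Klhl*, 7 *Kbtbd* and 12 *Btbd* genes, and *Kbtbd8os*, an antisense gene, was left out by its biotype. The rule used names and biotype, took only genes among those listed, and was set with earlier results of these data known. The gene annotation GENCODE M21 holds 96 protein-coding genes with such names. Of these, 40 (28 of them copies of *Btbd35f*) were not among the genes listed, so that they were not analysed here.

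RNA was prepared from total testis of C57BL/6 males, 3 fl/Y and 4 cKO/Y Sox2-Cre. Both genotypes carry an *Rlim* allele flanked by recombination sites on their single X chromosome, and the labels call the fl/Y libraries WT. In cKO/Y Sox2-Cre males the Sox2-Cre transgene, which is active in the early embryo, has deleted *Rlim* in the soma and in the germline, so that an effect of the transgene and the loss of *Rlim* cannot be told apart. The study describes the animals as littermates of 8 weeks of age. In the labels, batch 2 comprises replicates 1 and 2 of fl/Y together with replicates 1 and 2 of cKO/Y Sox2-Cre. Batch 1 comprises the other 3 libraries, 1 of fl/Y (replicate 3) and 2 of cKO/Y Sox2-Cre (replicates 3 and 4).

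Cullins are the scaffolds of the largest family of ubiquitin ligases. The carboxy-terminal end of a cullin holds the RING protein Rbx1 or Rnf7, which recruits the ubiquitin-conjugating enzyme, and the amino-terminal end binds an adaptor that brings the substrate. CUL3 takes proteins with a BTB domain as adaptors. In most *Klhl* and *Kbtbd* products a BTB domain is joined to a Kelch propeller that binds the substrate, whereas *Btbd* products have the BTB domain without a Kelch propeller. KLHL10 is the adaptor known from spermatids, and male mice with 1 mutated copy of *Klhl10* are infertile. RLIM itself is a RING ubiquitin ligase that works without a cullin.

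Values are CPM (reads after scaling of each library to a common size by the authors). Between 2822168 and 8633399 reads fell into the listed genes per library, so that 3 reads, the limit that a count of 0 allows, equalled 0.301 to 0.945 CPM in a library (counting error only). Markers of germ cells and somatic cells of the testis were present in both genotypes. The summed CPM of 8 elongating spermatid markers ranged from 9455 to 12094 in fl/Y and from 8749 to 13759 in cKO/Y Sox2-Cre libraries. That of 13 Sertoli markers ranged from 549.1 to 840.8 and from 547.9 to 962.5, of which *Clu* alone held 242.0 to 488.8 and 256.1 to 516.1. The sum of 7 Leydig markers ranged from 477.4 to 603.4 and from 430.8 to 769.0. At an unadjusted p under 0.05 in limma, 1 Sertoli, 2 Leydig and 1 of 6 spermatogonial markers were lower and 0 higher. None of the spermatocyte, round spermatid and elongating spermatid markers passed. Of all genes tested, 1.37% were lower and 1.22% higher. *Rlim* (chromosome X, 103957163 to 103981284 of GRCm38) was at 99.5, 70.7 and 61.5 CPM in fl/Y replicates 1 to 3, and at 32.6, 35.7, 21.7 and 20.7 CPM in the cKO/Y Sox2-Cre replicates 1 to 4, so that the genotypes did not overlap. Its log2 fold change was -1.38 (SE 0.16, adjusted p = 0.0087, limma). Of 19400 genes tested, *Rlim* was the 1 gene lower (0.00515%) and 0 were higher (0.0%) at an adjusted p under 0.05. The adjusted p of *Rlim* was 0.634 without fl/Y replicate 3 and 0.154 without fl/Y replicate 1.

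No gene of the cullin and BTB-Kelch families passed the test between the genotypes. Of the 56 genes, all of which passed the filter on low values (above 1 CPM in at least 3 libraries), 0 had an adjusted p under 0.05 in limma, and the smallest adjusted p was 0.9999. The count tests of edgeR and DESeq2 on the recovered reads also called 0 of the 56, where each called 1 of all 19400 genes tested. At an unadjusted p under 0.05, again in limma, 0 of 56 were lower and 0 were higher, where 1.37% of all genes tested were lower and 1.22% higher. The median log2 fold change of the 56 genes was -0.024, beside -0.006 for all genes tested, and single values ran from -0.40 for *Btbd18* to 0.60 for *Kbtbd3*. Medians by family were -0.075 for *Cul*, 0.040 for *Klhl*, -0.018 for *Kbtbd* and -0.064 for *Btbd* genes, with 32 of the 56 genes below 0 and 24 above. In total testis, fewer cells of a type and less RNA per cell cannot be told apart in any of these values.

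The size of difference that these libraries leave possible is given by the 95% interval of each log2 fold change. For 49 of 56 genes (87.5%) the interval lay within a 2-fold difference in either direction, and for 27 (48.2%) within 1.5-fold. These shares were 77.0% and 38.9% of all genes tested, and 83.9% and 48.0% of the protein-coding genes tested. The median half-width was 0.42 on the log2 scale, from 0.29 to 1.08. The widest interval was that of *Klhl13*. Of the 56 genes, 13 had a mean under 5 CPM, and *Klhl13* and *Btbd35f25* had a library at or below 3 reads.

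**Figure D1:**
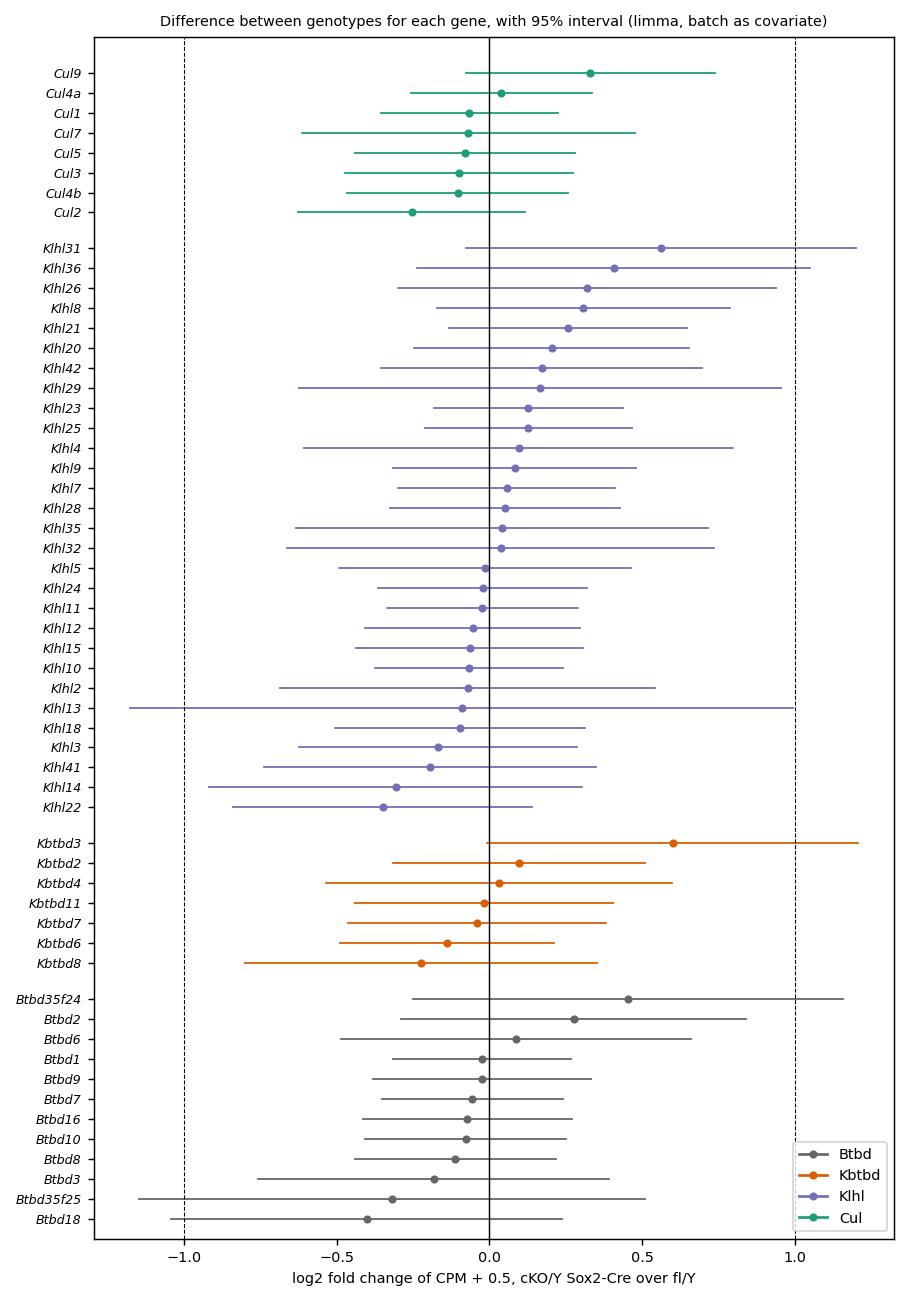
Log2 fold change of CPM + 0.5 in cKO/Y Sox2-Cre over fl/Y testes (x axis, points) with its 95% interval (lines) for each of the 56 genes (y axis), coloured by family, with dashed lines at a 2-fold difference. Every interval includes 0, and 49 of 56 lie between the dashed lines.

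The count at an unadjusted p depended on single libraries. Without cKO/Y Sox2-Cre replicate 2, 4 of the 56 genes were higher and 1 was lower at an unadjusted p under 0.05 in limma (*Btbd2*, *Cul9*, *Klhl36* and *Klhl8* higher, *Kbtbd8* lower), or 8.93% beside 6.28% of all genes tested, and the smallest adjusted p of the 56 was 0.785. Without fl/Y replicate 1, *Kbtbd3* and *Klhl8* were higher at that threshold (3.57%, beside 2.28% of all genes), and *Kbtbd3* was so without cKO/Y Sox2-Cre replicate 1 (1.79%, beside 3.71%).

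The genes differed far more among themselves than between the genotypes. Levels between genes were compared as CPM per kb of exon, since a longer transcript gives more reads. The length was that of all annotated exons together, so that a gene with a shorter transcript in testis is understated. The study describes such a shorter transcript in mature testis for *Rlim*, and for the 56 genes this was not tested. *Klhl10* had the highest level, 157.7 ± 29.0 CPM per kb (n = 3, SD) in fl/Y testes, above 98.8% of the protein-coding genes listed. *Cul3* followed with 89.3 ± 14.5 CPM per kb and *Btbd1* with 77.7 ± 4.52, and these neighbours in the order overlapped in their fl/Y libraries, while *Klhl10* lay above both in every fl/Y library. *Btbd16* (49.6 ± 9.59) and *Cul1* (40.0 ± 6.03) came next and also overlapped. At the lower end were *Klhl13* (0.322 ± 0.327 CPM per kb), close to the limit of detection, and *Klhl29* (0.283 ± 0.0466). Over all 56 genes, 51 of 55 neighbours in the order overlapped. Of the 56, 26 lay above the median of the protein-coding genes listed, and 5 above their 90th percentile.

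**Figure D2:**
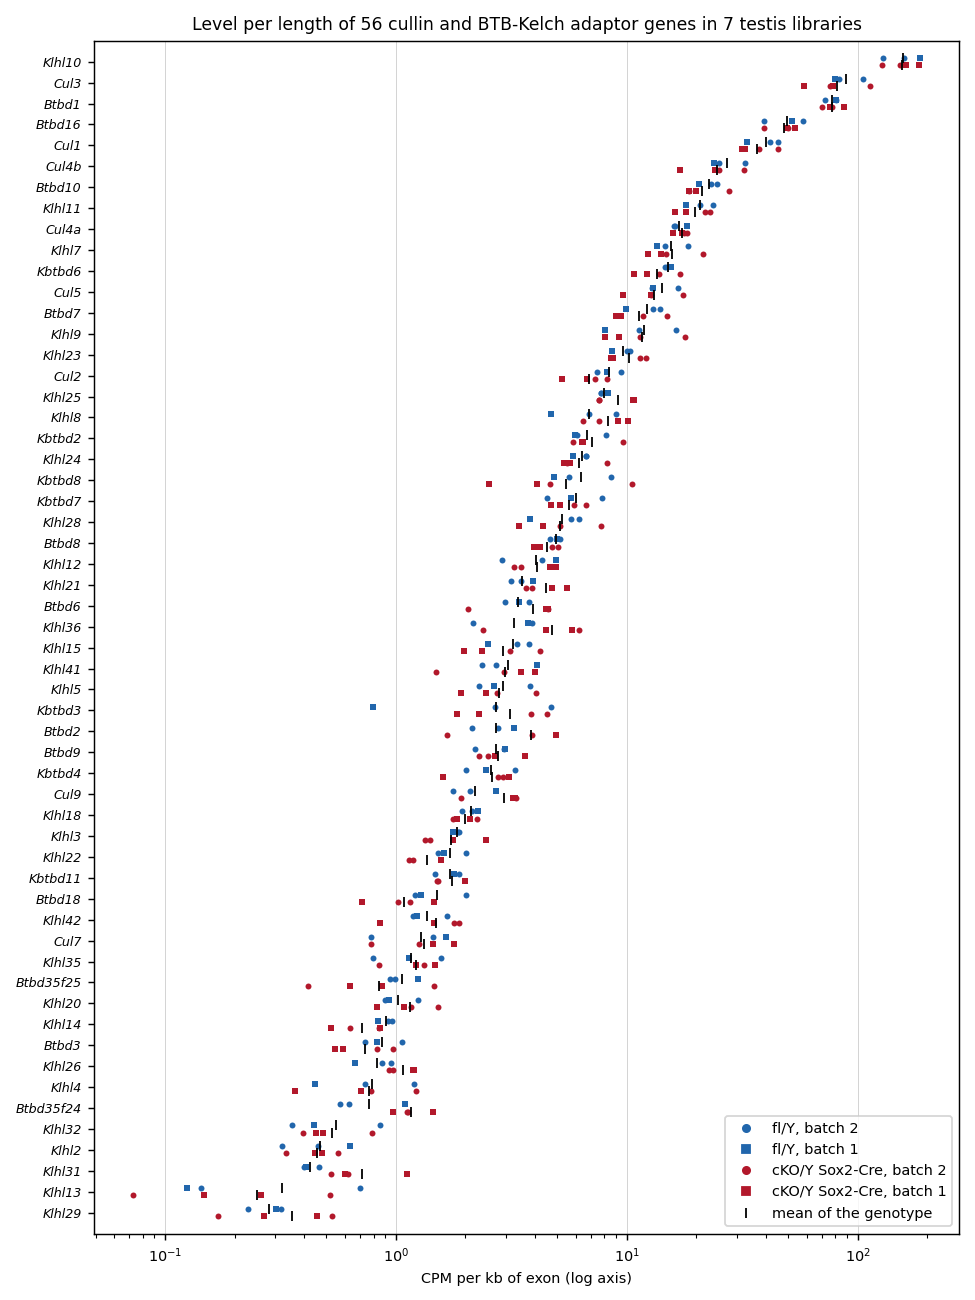
Level of each of the 56 genes (y axis, ordered by the fl/Y mean) in CPM per kb of exon on a log axis, with 1 point per library (blue fl/Y, red cKO/Y Sox2-Cre, circles batch 2, squares batch 1) and a black bar at the mean of each genotype. *Klhl10* is at the top with 157.7 CPM per kb in fl/Y, and the genotypes lie side by side throughout the order.

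The promoters of the highest cullin and the highest adaptor are unlike in their CpG dinucleotides, which often mark promoters of broadly used genes. They are printed to show this difference at the top of the order of levels. The stretches of 300 bases span the transcription start in RefSeq (build GRCm38.p6), 5′ to 3′ on the strand of the gene, with each CpG in capitals. *Klhl10* lies on the plus strand at chr11:100441674-100441973 and *Cul3* on the minus strand at chr1:80340641-80340940. In the gene model behind the *Cul3* level, the gene begins at 80340480, so that the *Cul3* stretch lies wholly upstream of that model.
Klhl10: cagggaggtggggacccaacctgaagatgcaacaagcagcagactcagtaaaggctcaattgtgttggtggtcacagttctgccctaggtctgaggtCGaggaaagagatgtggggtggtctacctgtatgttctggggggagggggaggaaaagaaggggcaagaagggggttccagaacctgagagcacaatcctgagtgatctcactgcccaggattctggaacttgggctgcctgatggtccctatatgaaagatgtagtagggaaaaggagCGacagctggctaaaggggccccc
Cul3: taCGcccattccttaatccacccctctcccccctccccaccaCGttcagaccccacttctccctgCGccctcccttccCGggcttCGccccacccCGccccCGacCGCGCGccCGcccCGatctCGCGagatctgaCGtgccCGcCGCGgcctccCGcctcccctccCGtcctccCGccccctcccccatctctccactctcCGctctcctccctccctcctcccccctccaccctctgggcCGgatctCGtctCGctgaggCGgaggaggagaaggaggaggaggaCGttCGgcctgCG
The *Klhl10* stretch holds 2 CpG at 54.7% GC, and 23.3% of the 32851 promoters in the RefSeq table hold as few or fewer. The *Cul3* stretch holds 29 CpG at 72.3% GC, and 88.3% of promoters hold at most that many. A promoter was found for 45 of the 56 genes (62 promoters in all), with a median of 22 CpG beside 7 over the whole table. Of these 62, only 1 of *Klhl13* (0 CpG) and that of *Klhl4* (1 CpG) held fewer than *Klhl10*, and both promoters of *Btbd16*, the fourth gene in the order of levels, also held 2. These counts describe the sequence, and no methylation was measured.

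*Cul3* (ENSMUSG00000004364), the scaffold that takes the BTB adaptors, had the highest level of the cullins. It was at 516, 402 and 387 CPM in fl/Y replicates 1 to 3 and at 369, 553, 286 and 382 CPM in the cKO/Y Sox2-Cre replicates 1 to 4. The cKO/Y Sox2-Cre libraries thus held both the highest and the lowest value, and enclosed those of fl/Y. The log2 fold change was -0.10 (95% interval -0.47 to 0.28, limma), with -0.01 within batch 2 and -0.23 within batch 1. As a share of the summed level per kb of the 8 cullins, *Cul3* made up 44.7 ± 1.42% in fl/Y (n = 3, SD) and 43.8 ± 3.27% in cKO/Y Sox2-Cre testes (n = 4, SD).

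In the order of the 8 cullins by level per kb, *Cul4a* and *Cul5* were the only neighbours whose fl/Y libraries overlapped. *Cul1*, the scaffold that joins SKP1 and F-box proteins, made up 20.1% of the cullin level in fl/Y and 20.0% in cKO/Y Sox2-Cre testes. *Cul4b* and *Cul4a*, which use DDB1 as adaptor, made up 13.6% and 8.55% in fl/Y testes. *Cul4a*, which is needed for male meiosis in mice, was at 103 to 117 CPM in fl/Y and at 101 to 117 CPM in the cKO/Y Sox2-Cre libraries, the narrowest spread among the cullins. *Cul4b* lies on the X chromosome and was at 106 ± 18.2 CPM (n = 3, SD) and 95.2 ± 24.1 CPM (n = 4, SD), with a log2 fold change of -0.10.

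*Cul5* and *Cul2* are the scaffolds that bind elongins B and C. *Cul5* was at 116 ± 17.7 CPM (n = 3, SD) in fl/Y and 107 ± 26.6 CPM (n = 4, SD) in cKO/Y Sox2-Cre testes. *Cul2* was at 40.0, 31.3 and 34.5 CPM in fl/Y and at 30.7, 34.5, 22.0 and 28.2 CPM in the cKO/Y Sox2-Cre replicates. In cKO/Y Sox2-Cre testes, 3 libraries lay below the range of fl/Y and 1 within it. Its log2 fold change was -0.25 (SE 0.17), with an unadjusted p of 0.165 in limma.

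*Cul9* and *Cul7* encode large, atypical cullins that bind p53 and lie 103.9 kb apart on chromosome 17. *Cul9* was at 25.5, 21.6 and 33.2 CPM in fl/Y and at 40.3, 23.3, 40.0 and 39.3 CPM in the cKO/Y Sox2-Cre replicates. Above all fl/Y libraries were thus 3 of the 4 cKO/Y Sox2-Cre libraries, while replicate 2 was within their range. The log2 fold change was 0.33 (SE 0.19, unadjusted p = 0.105, limma), and was 0.51 (adjusted p = 0.785) when cKO/Y Sox2-Cre replicate 2 was left out and 0.12 without replicate 1. *Cul7* was at 9.56 ± 3.37 CPM (n = 3, SD) and 9.76 ± 3.11 CPM (n = 4, SD).

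*Klhl10* (ENSMUSG00000001558, chromosome 11, 100441917 to 100457022) was at 277, 343 and 402 CPM in fl/Y and at 275, 328, 398 and 349 CPM in the cKO/Y Sox2-Cre replicates. The ranges of the genotypes coincided almost entirely. Its log2 fold change was -0.07 (SE 0.15, 95% interval -0.38 to 0.24, limma), beside means of 341 ± 62.6 CPM (n = 3, SD) and 337 ± 51.0 CPM (n = 4, SD). *Klhl10* alone made up 56.9 ± 7.21% of the summed level per kb of the 29 *Klhl* genes in fl/Y and 55.99 ± 4.95% in cKO/Y Sox2-Cre testes. The ratio of *Klhl10* to *Cul3*, per kb, was 1.83 ± 0.57 (n = 3, SD) and 2.05 ± 0.78 (n = 4, SD), and ranged over all libraries from 1.21 in fl/Y replicate 1 to 3.13 in cKO/Y Sox2-Cre replicate 3. Markers of round spermatids, in which *Klhl10* is known to be expressed, summed to 692.3 to 848.2 CPM in fl/Y and to 666.9 to 840.1 CPM in the cKO/Y Sox2-Cre libraries.

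**Figure D3:**
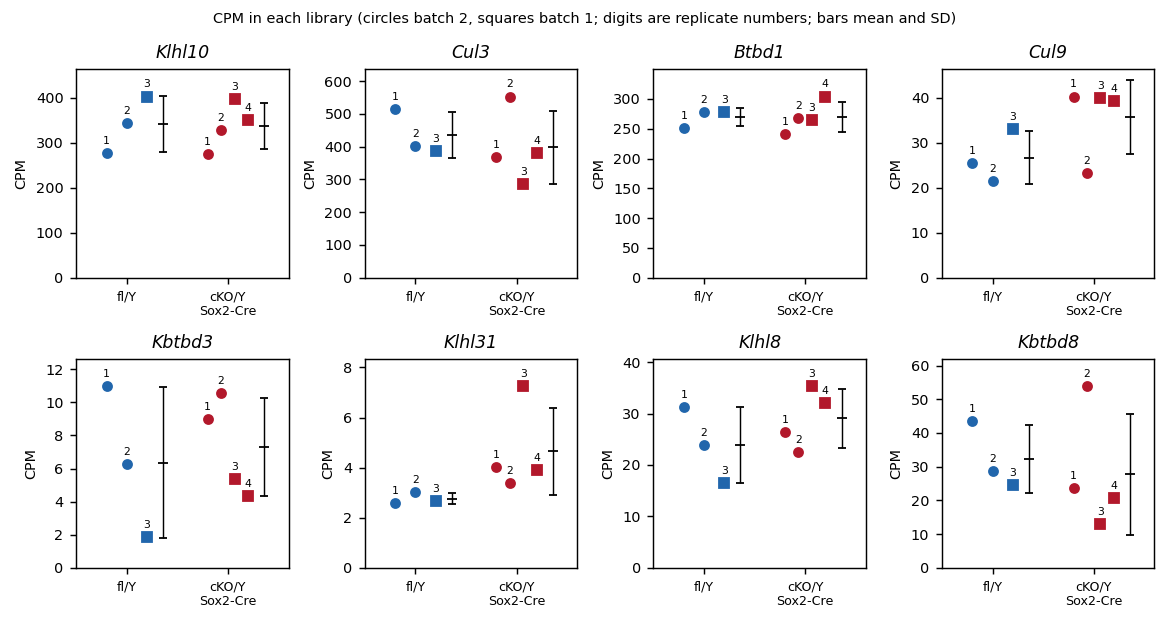
CPM (y axes, from 0) of 8 genes in each library (fl/Y blue, cKO/Y Sox2-Cre red), with circles for batch 2, squares for batch 1, digits for replicate numbers, and black bars for mean and SD. *Klhl10*, *Cul3* and *Btbd1* overlap between the genotypes, whereas all 4 cKO/Y Sox2-Cre libraries of *Klhl31* (3.39 to 7.24 CPM) lie above fl/Y, with replicate 3 apart from the rest.

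*Klhl11* lies 5.59 kb from *Klhl10* on the opposite strand of chromosome 11 and had the second highest level among the *Klhl* genes. It was at 56.7, 49.7 and 43.0 CPM in fl/Y and at 52.1, 54.6, 43.1 and 38.8 CPM in the cKO/Y Sox2-Cre replicates. The ratio of *Klhl10* to *Klhl11* per kb was 7.81 ± 2.48 in fl/Y (n = 3, SD) and 8.17 ± 2.24 in cKO/Y Sox2-Cre testes (n = 4, SD). Across the libraries both genes were thus not in a fixed ratio, which ran from 5.41 to 10.4 within fl/Y alone.

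*Klhl7*, *Klhl9* and *Klhl23* followed in level. *Klhl9*, whose product acts in mitosis together with KLHL13 on Aurora B, was at 68.0, 47.1 and 33.7 CPM in fl/Y and at 47.5, 74.5, 33.7 and 38.7 CPM in the cKO/Y Sox2-Cre replicates. High values were found in fl/Y replicate 1 and cKO/Y Sox2-Cre replicate 2, and low values in all libraries of batch 1. *Klhl7* was at 61.3 ± 10.3 CPM (n = 3, SD) and 61.8 ± 15.5 CPM (n = 4, SD), and *Klhl23* at 47.5 ± 4.45 and 50.3 ± 9.07 CPM. *Klhl21*, the third adaptor known to act on Aurora B, was at 13.9, 12.5 and 15.6 CPM in fl/Y and at 15.5, 14.6, 22.0 and 19.0 CPM in the cKO/Y Sox2-Cre replicates, with a log2 fold change of 0.26 (unadjusted p = 0.179, limma). Its genotypes overlapped, and 20.5% of its 35-base words occur in transcripts of other genes, among them one that overlaps it on the opposite strand.

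*Klhl31* (ENSMUSG00000044938, chromosome 9) encodes an adaptor known from skeletal muscle and had one of the lowest levels, 0.425 ± 0.0359 CPM per kb (n = 3, SD) in fl/Y testes. It was at 2.60, 3.03 and 2.65 CPM in fl/Y and at 4.03, 3.39, 7.24 and 3.91 CPM in the cKO/Y Sox2-Cre replicates. *Klhl31* was the only one of the 56 genes whose genotypes did not overlap, with all cKO/Y Sox2-Cre libraries above fl/Y, where 1.34% of all genes tested had this order and 1.59% the reverse. The log2 fold change was 0.56 (95% interval -0.08 to 1.20, unadjusted p = 0.0800, limma), and was 0.39 without cKO/Y Sox2-Cre replicate 3. The 3 of 9 skeletal muscle markers that were listed summed to 14.3 to 15.4 CPM in fl/Y and to 9.37 to 18.0 CPM in the cKO/Y Sox2-Cre libraries, and their part in this result was not tested. *Klhl41*, another adaptor of skeletal muscle, was at 7.72 ± 2.32 CPM (n = 3, SD) and 7.54 ± 2.72 CPM (n = 4, SD).

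*Klhl8* is not covered by the rule for named genes and was picked for its values. It stood at 31.2, 23.8 and 16.4 CPM in fl/Y and at 26.4, 22.5, 35.3 and 32.0 CPM in the cKO/Y Sox2-Cre replicates. The log2 fold change was -0.16 within batch 2 and 1.01 within batch 1, where it rests on 1 fl/Y library, fl/Y replicate 3. Over both batches the log2 fold change of *Klhl8* was 0.31 (unadjusted p = 0.192, limma).

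Among the *Klhl* genes below fl/Y, *Klhl22*, an adaptor with roles in mitosis and in mTORC1 signalling, was at 7.99, 10.5 and 8.49 CPM in fl/Y and at 6.20, 5.98, 8.19 and 8.23 CPM in the cKO/Y Sox2-Cre replicates. Its log2 fold change was -0.35 (unadjusted p = 0.148, limma), with -0.55 within batch 2 and -0.05 within batch 1. *Klhl14* on chromosome 18 was at 4.01 ± 0.272 CPM (n = 3, SD) and 3.15 ± 0.721 CPM (n = 4, SD), and 12.5% of its 35-base words are shared with other genes. *Klhl3*, which directs WNK kinases to degradation in the kidney and is the only one of the 56 genes on chromosome 13, was at 13.4 ± 0.39 and 12.7 ± 3.75 CPM. None of these 3 genes passed an unadjusted p of 0.05 in limma.

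The X chromosome, on which *Rlim* lies, holds 6 of the 56 genes. *Klhl15*, whose product targets a regulatory subunit of protein phosphatase 2A, lies 9.68 Mb from *Rlim* and *Klhl4* 10.5 Mb from it. *Klhl15* was at 36.6, 32.5 and 24.4 CPM in fl/Y and at 30.4, 41.1, 19.2 and 23.0 CPM in the cKO/Y Sox2-Cre replicates, with a log2 fold change of -0.06. *Klhl4* was at 2.83 ± 1.35 CPM (n = 3, SD) and 2.75 ± 1.27 CPM (n = 4, SD). Both genes thus overlapped between the genotypes. *Klhl13* was at 2.97, 0.606 and 0.530 CPM in fl/Y and at 0.310, 2.19, 0.630 and 1.10 CPM in the cKO/Y Sox2-Cre replicates, where 3 reads are 0.301 to 0.945 CPM, and a difference was not detectable at this depth. *Btbd35f24* and *Btbd35f25* are members of a family of near-identical copies, and 87.3% and 84.3% of their 35-base words occur in other genes, so that their values of 1.48 ± 0.555 and 1.59 ± 0.237 CPM (n = 3, SD) in fl/Y and of 2.27 ± 0.388 and 1.27 ± 0.678 CPM (n = 4, SD) in cKO/Y Sox2-Cre testes are uncertain.

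Of the *Kbtbd* genes, *Kbtbd6* had the highest level and made up 37.0 ± 5.42% of their summed level per kb in fl/Y (n = 3, SD) and 34.7 ± 1.74% in cKO/Y Sox2-Cre testes (n = 4, SD). KBTBD6 and KBTBD7 together recruit CUL3 to the RAC1 activator TIAM1, and their genes lie 20.8 kb apart on chromosome 14. *Kbtbd6* shares 26.6% of its 35-base words with *Kbtbd7*, and *Kbtbd7* shares 17.5% of its words with *Kbtbd6*. *Kbtbd6* was at 44.6, 43.8 and 46.1 CPM in fl/Y and at 41.3, 50.8, 32.1 and 36.6 CPM in the cKO/Y Sox2-Cre replicates, with a log2 fold change of -0.14. Its ratio to *Kbtbd7* per kb was 2.62 ± 0.67 (n = 3, SD) and 2.40 ± 0.24 (n = 4, SD). *Kbtbd2*, which acts on a subunit of PI3-kinase in insulin signalling, was at 27.5 ± 5.0 and 28.9 ± 7.10 CPM.

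*Kbtbd3* (ENSMUSG00000025893, chromosome 9) had the smallest unadjusted p of the 56 genes, 0.0521 in limma, at a log2 fold change of 0.60 (95% interval -0.01 to 1.21). It was at 11.0, 6.26 and 1.86 CPM in fl/Y and at 8.99, 10.6, 5.35 and 4.32 CPM in the cKO/Y Sox2-Cre replicates. The genotypes overlapped, and the lowest value of all was that of fl/Y replicate 3, the single fl/Y library of batch 1. Within batch 1 the log2 fold change was 1.17 and within batch 2 it was 0.22, as it was without fl/Y replicate 3.

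*Kbtbd8*, which directs ubiquitylation of ribosome assembly factors in neural crest, varied widely within each genotype. It was at 43.7, 28.7 and 24.7 CPM in fl/Y and at 23.6, 53.8, 12.9 and 20.8 CPM in the cKO/Y Sox2-Cre replicates. Its highest and its lowest library were both cKO/Y Sox2-Cre. *Kbtbd4*, at 8.10 ± 2.02 CPM (n = 3, SD) and 8.16 ± 2.12 CPM (n = 4, SD), overlaps *Ptpmt1* and *Ndufs3* on the opposite strand over much of its length, and 52.6% of its 35-base words are shared, so that its reads are uncertain.

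*Btbd1*, a partner of topoisomerase 1, made up 43.1 ± 1.21% of the level per kb of the 12 *Btbd* genes in fl/Y (n = 3, SD) and 43.9 ± 1.72% in cKO/Y Sox2-Cre testes (n = 4, SD). It was at 252, 279 and 279 CPM in fl/Y and at 242, 268, 265 and 304 CPM in the cKO/Y Sox2-Cre replicates, the narrowest spread among the 4 most abundant genes per kb, and 25.1% of its 35-base words are shared with *Gm14121*. *Btbd16* was at 146, 215 and 193 CPM in fl/Y and at 145, 185, 184 and 198 CPM in the cKO/Y Sox2-Cre replicates. In fl/Y replicate 1 and cKO/Y Sox2-Cre replicate 1, *Btbd16* was lower than in the other libraries, so that this difference did not follow the genotype. *Btbd10* was at 132 ± 12 CPM (n = 3, SD) and 123 ± 25.1 CPM (n = 4, SD).

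*Btbd18*, which encodes a nuclear factor of spermatocytes that promotes transcription of pachytene piRNA precursors, was at 4.28, 7.07 and 4.51 CPM in fl/Y and at 4.03, 3.59, 2.52 and 5.12 CPM in the cKO/Y Sox2-Cre replicates. Its log2 fold change of -0.40 (95% interval -1.04 to 0.24, limma) was the lowest among the 56 genes and did not pass an unadjusted p of 0.05. The highest cKO/Y Sox2-Cre library lay above 2 of the 3 fl/Y libraries. The sum of 7 spermatocyte markers was 803.1 to 1184 CPM in fl/Y and 576.0 to 1283 CPM in the cKO/Y Sox2-Cre libraries, and the part of these cells in the *Btbd18* values was not tested.

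The remaining genes, 25 that the rule for named genes does not cover, ranged in fl/Y mean from 1.99 CPM for *Klhl29* to 202.0 CPM for *Btbd7*, and in log2 fold change from -0.19 for *Klhl41* to 0.41 for *Klhl36*, with 13 above 0 and 12 below, and a median of 0.03. For 14 of the 25 the log2 fold change was under 0.1 in size. *Btbd7*, known from branching of epithelia, was at 228, 214 and 164 CPM in fl/Y and at 194, 246, 148 and 155 CPM in the cKO/Y Sox2-Cre replicates, with the libraries of batch 1 lowest in each genotype. *Klhl24*, an adaptor that turns over keratin 14 in skin, had 64.8 ± 4.71 CPM (n = 3, SD) and 63.0 ± 13.9 CPM (n = 4, SD). *Klhl12*, which takes the vesicle coat protein SEC31 as substrate, had 45.9 ± 11.8 and 46.4 ± 9.42 CPM.

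*Klhl36* and *Btbd2* varied between libraries in a like way, and were described after their values were seen. *Klhl36* was at 5.02, 9.09 and 8.75 CPM in fl/Y and at 14.6, 5.58, 13.5 and 10.4 CPM in the cKO/Y Sox2-Cre replicates, and *Btbd2*, a relative of *Btbd1*, was at 7.62, 9.89 and 11.7 CPM and at 14.0, 5.98, 17.6 and 17.7 CPM. In both, cKO/Y Sox2-Cre replicate 2 and fl/Y replicate 1 were the lowest libraries and the other cKO/Y Sox2-Cre libraries were above all fl/Y libraries. The GC content of their longest transcripts was 60.5% and 61.6%, among the 3 highest of the 56 genes. *Klhl35*, with the highest GC content (66.7%), did not show this order, with 2.04, 4.04 and 2.92 CPM in fl/Y and 2.17, 3.39, 3.15 and 3.81 CPM in the cKO/Y Sox2-Cre replicates. The part of GC content in these values was not tested in single genes.

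The direction of the difference was often unlike between the batches. The log2 fold change had the same sign within batch 2 and within batch 1 for 32 of 56 genes (57.1%), beside 48.4% of all genes tested. Its median was 0.013 within batch 2 and -0.036 within batch 1. *Klhl36* was higher in both batches, with 0.40 within batch 2 and 0.42 within batch 1, and *Btbd18* and *Klhl14* were among those lower in both. *Kbtbd3* and *Klhl8* had the largest values within batch 1, both with fl/Y replicate 3 as the lowest of all 7 libraries.

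**Figure D4:**
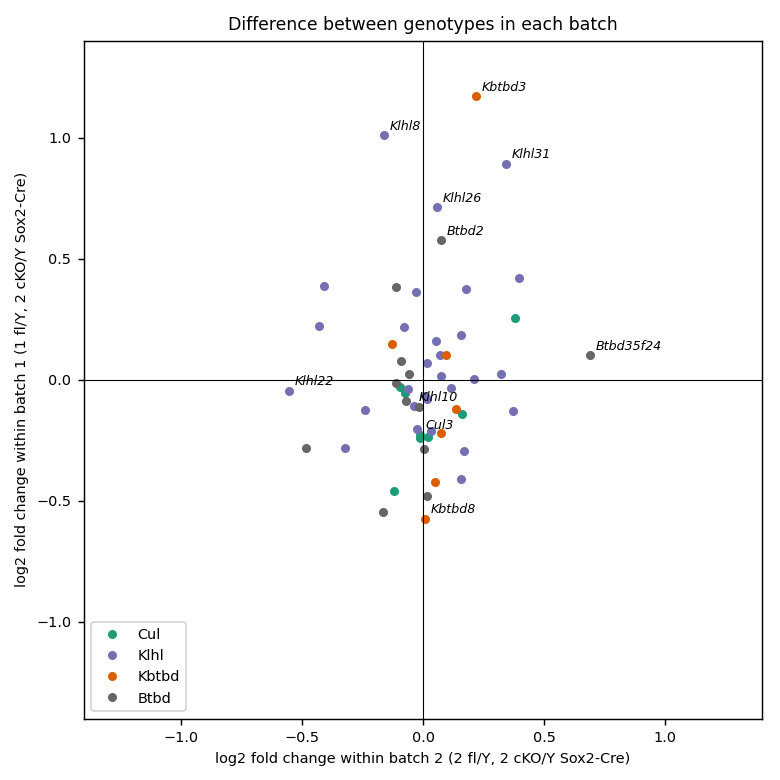
Log2 fold change of each of the 56 genes, cKO/Y Sox2-Cre over fl/Y, within batch 2 (x axis, 2 against 2 libraries) and within batch 1 (y axis, 1 fl/Y against 2 cKO/Y Sox2-Cre libraries), coloured by family. Points are spread over all quadrants, 32 of 56 have the same sign on both axes, and *Kbtbd3* and *Klhl8* lie highest on the batch 1 axis.

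In both genotypes, libraries differed with the base composition of the transcripts. The longest transcripts of the 56 genes had a median GC content of 45.1%, from 35.9% to 66.7%, beside 48.5% for all genes tested. In the 28 genes of lower GC, the median deviation from the mean of the 7 libraries was 0.38 on the log2 scale in cKO/Y Sox2-Cre replicate 2 and 0.27 in fl/Y replicate 1. In the libraries of batch 1 it was -0.23 in cKO/Y Sox2-Cre replicate 3, -0.13 in cKO/Y Sox2-Cre replicate 4 and -0.11 in fl/Y replicate 3. In the 28 genes of higher GC the same libraries stood, in this order, at -0.14, -0.10, 0.16, 0.17 and 0.03. Both a fl/Y and a cKO/Y Sox2-Cre library of batch 2 were therefore high at low GC, and all libraries of batch 1 were low.

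As a description over the 56 genes, which share these libraries, Spearman's correlation of the deviation with GC content was -0.76 in cKO/Y Sox2-Cre replicate 2, -0.60 in fl/Y replicate 1, 0.66 in cKO/Y Sox2-Cre replicate 3 and 0.55 in replicate 4, and between -0.05 and 0.29 in the other 3 libraries. All genes with a known GC content (19363) gave -0.60, -0.48, 0.52 and 0.41 in these 4 libraries, so that the pattern was shared by the whole transcriptome. The difference of batch 2 minus batch 1 had a Spearman's correlation with GC content of -0.66 over the 56 genes. cKO/Y Sox2-Cre replicate 2 was the highest library in 14 of the 56 genes (25.0%, beside 19.7% of all genes tested), and replicate 3 the lowest in 16 (28.6%, beside 21.6%). The ratio of the highest to the lowest library had a median of 1.85 over the 56 genes. It was 2.11 over all genes tested and 1.93 over the protein-coding genes tested. After correction of each library for GC content, 0 of the 56 genes passed an adjusted p of 0.05 in limma and *Kbtbd3* alone had an unadjusted p under 0.05 (0.0319), which is 1.79% of the 56 beside 3.39% of all genes. The part of base composition in the values above was not tested otherwise.

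**Figure D5:**
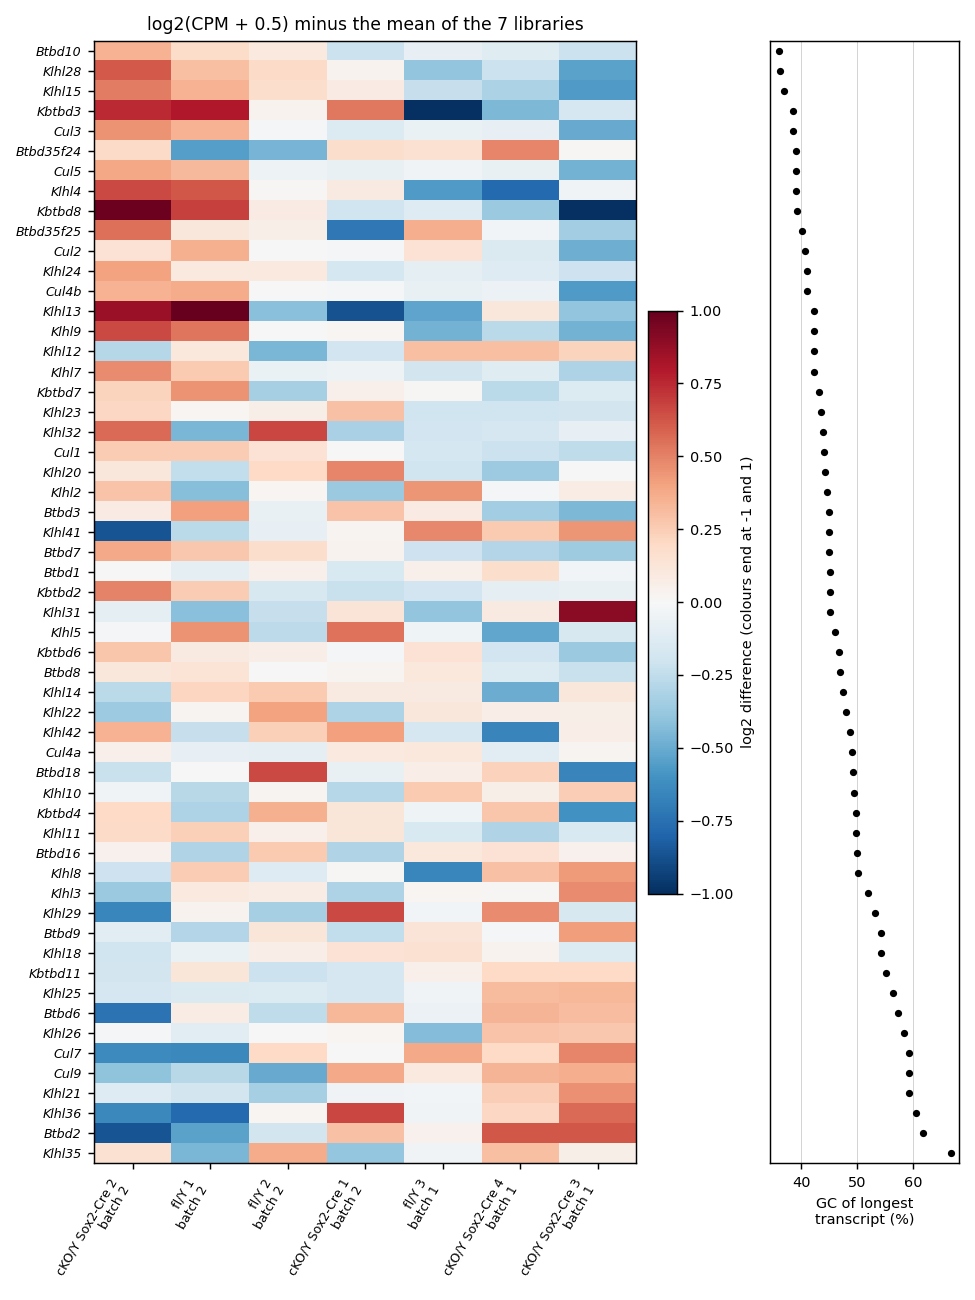
Log2(CPM + 0.5) of each of the 56 genes minus its mean over the 7 libraries (colours, ending at -1 and 1), with genes (y axis) ordered by the GC content of their longest transcript (right panel, percent) and libraries on the x axis. By their medians, genes of low GC are high in cKO/Y Sox2-Cre replicate 2 and fl/Y replicate 1. They are low in the libraries of batch 1, which are cKO/Y Sox2-Cre replicates 3 and 4 and fl/Y replicate 3. Genes of high GC show the reverse, weakly in fl/Y replicate 3.

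The machinery around the cullins did not pass the test either. These were 35 genes for RING subunits, NEDD8 and its conjugation, CAND exchange factors, the COP9 signalosome and the linkers of other cullins. At an unadjusted p under 0.05 in limma, 0 were lower and 0 higher, where 1.37% of all genes tested were lower and 1.22% higher. Their median log2 fold change was 0.03, with single values from -0.25 to 0.25. For 31 of these 35 genes (88.6%) the 95% interval lay within 1.5-fold, beside 38.9% of all genes and 48.0% of protein-coding genes tested. The smallest p-values were those of *Cops9* and *Cops8*, subunits of the signalosome that removes NEDD8 from cullins. *Cops8* was at 43.5, 43.8 and 36.6 CPM in fl/Y and at 49.6, 46.2, 41.9 and 43.3 CPM in the cKO/Y Sox2-Cre replicates, and *Cops9* was at 19.5 ± 1.26 CPM (n = 3, SD) and 22.5 ± 2.58 CPM (n = 4, SD). Their genotypes overlapped.

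Of 37 further BTB proteins, 35 were listed, at a median log2 fold change of 0.02. At an unadjusted p under 0.05 in limma, 1 was higher and 0 lower, where 1.22% of all genes tested were higher and 1.37% lower. The higher one was *Kctd14*, at 3.16, 1.01 and 1.59 CPM in fl/Y and at 5.27, 3.59, 4.41 and 2.71 CPM in the cKO/Y Sox2-Cre replicates, with a log2 fold change of 1.00 (adjusted p = 0.9999). *Enc1* was at 17.3 ± 2.1 CPM (n = 3, SD) and 21.1 ± 5.13 CPM (n = 4, SD). *Keap1*, the CUL3 adaptor for the stress factor NRF2, was at 28.6, 31.5 and 41.9 CPM in fl/Y and at 27.0, 26.3, 40.9 and 39.9 CPM in the cKO/Y Sox2-Cre replicates. In both genotypes *Keap1* was higher in batch 1 than in batch 2, and its log2 fold change was -0.12 (95% interval -0.45 to 0.20).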

How the data were processed

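RNA-seq of total testis was available for 7 libraries, grouped by the genotype of the labels as 3 fl/Y and 4 cKO/Y Sox2-Cre. The deposited values are a signal in CPM, made by the authors. The submitters' processing notes name HISAT2 2.1.0, featureCounts, edgeR and GRCm38, while the methods of the study name TopHat, HTSeq and edgeR, and which of them made the table was not settled. Whether reads were counted by strand is not given in the sources used here. All values of every library (100%) were whole numbers of reads, with a tolerance of 0.001 reads, and their scaling equalled TMM factors of edgeR.

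Genes above 1 CPM in at least 3 libraries (19400) were tested on log2(CPM + 0.5) with limma 3.58.1 in R 4.3.3, with a variance trend and the batch as covariate, two-sided, and p-values were adjusted by Benjamini-Hochberg over all genes tested. Fold changes on this scale understate differences of low genes. P-values measure the spread between these libraries. The study speaks of biological replicates, while the labels do not say that each library is a separate animal. The count tests of edgeR 4.0.16 and DESeq2 1.42.0 on the recovered reads, other pseudocounts, filters and scalings, models without batch, trend or with replicate numbers as a block, each batch alone and each library left out were alternatives, and a correction for GC content by lowess was added after the data were seen. The method was tested on simulated data.

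Exon lengths, GC content and shared 35-base words came from GENCODE M21 (19680 of 19719 identifiers matched), and promoters from RefSeq. Named are all cullins, *Klhl10*, the 5 *Klhl*, 3 *Kbtbd* and 3 *Btbd* genes with the highest level per kb, the 5 genes with the smallest p in each direction, those on chromosomes X and 13, and 2 of each further list with *Keap1*. Other genes named were chosen after their values were seen. The genes and lists were chosen with earlier results of these data known.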

Additional observations from a re-analysis of the deposited data

Results flagged for a closer look

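In the 4 cKO/Y Sox2-Cre libraries, 62 genes named or described here were checked for a library far from the others (Dixon's ratio of gap to range above 0.829), and 6 were found. The share of all genes tested that pass this ratio was not counted, and the genes share the same 4 libraries. Whether 6 of 62 is more than elsewhere in these data was therefore not tested. In 5 of the 6 genes the library was cKO/Y Sox2-Cre replicate 2. It was the highest for *Btbd10* (160.3 CPM, others 108.2 to 115.1), *Kbtbd2* (39.5 CPM, others 23.9 to 26.5) and *Klhl24* (83.7 CPM, others 54.5 to 57.8), and the lowest for *Btbd6* (4.78 CPM, others 10.4 to 10.6) and *Cul9* (23.3 CPM, others 39.3 to 40.3). The first 3 genes have a transcript GC content of 35.9%, 45.1% and 40.9%, and the other 2 of 57.2% and 59.2%. For *Klhl31* it was cKO/Y Sox2-Cre replicate 3, with 7.24 CPM beside 3.39 to 4.03 CPM. The cause of these values was not tested.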

How the results depend on the processing

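Of 21 alternatives, batch 1 alone left 1 fl/Y library, so that its p-values cannot decide whether a gene differs between the genotypes. For single genes only fold changes are given for it, and its calls are given only as counts over all genes. No conclusion on the 56 genes is drawn from its calls. None of the 56 genes passed an adjusted p of 0.05 under the alternatives other than batch 1 alone. Members at an unadjusted p under 0.05 in limma were 1 higher at a pseudocount of 0.1 CPM (1.79%, beside 2.41% of all genes) and 1 higher after GC correction (1.79%, beside 3.39%). They were 0 to 4 higher and 0 to 1 lower when single libraries were left out. The cause of these shifts was not tested. A mean above 5 CPM left 13 of the 56 genes untested. The further BTB list gave 0 higher at a mean above 5 CPM and in batch 2 alone, where 1.34% and 1.69% of all genes passed in either direction. Without single libraries it gave 0 to 2 higher and 0 to 1 lower, where 2.05% to 6.28% of all genes passed.

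*Rlim* kept its direction but not its side of the threshold without a batch term (-1.47, adjusted p = 0.921), without a variance trend (-1.38, 0.815) and in batch 2 alone (-1.29, 0.872), and leaving out single libraries gave -1.52 to -1.28. Over all genes, calls were 0 lower without a batch term, without a trend and in batch 2 alone, 11 lower and 17 higher in batch 1 alone, and 0 to 3 lower and 0 to 1 higher without single libraries.

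Whether the replicate numbers pair the libraries was not settled. Correlations of deviations were 0.101, 0.066 and 0.392 for replicates 1 to 3. Most like cKO/Y Sox2-Cre replicate 2 were both fl/Y replicates 1 and 2, and fl/Y replicate 3 was most like cKO/Y Sox2-Cre replicate 3. With the replicate block in place of the batch, 0 genes were called, *Rlim* was at -1.35 (adjusted p = 0.307), *Klhl11* at 0.0069, and 0 of the 56 genes passed.

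Some genes changed sign without a call. In the main fit *Kbtbd8* was at -0.22, *Klhl3* at -0.17 and *Kbtbd6* at -0.14, and the others listed here were nearer to 0. Without a batch term *Cul7* was at 0.037, *Klhl4* at -0.041, *Klhl7* at -0.0056 and *Klhl9* at -0.038. In batch 1 alone *Btbd1* was at 0.025, *Cul4a* at -0.14, *Klhl13* at 0.39, *Klhl3* at 0.22 and *Klhl7* at -0.033, and in batch 2 alone *Cul5* at 0.022, *Kbtbd6* at 0.050, *Kbtbd8* at 0.010, *Klhl11* at 0.0074 and *Klhl15* at 0.034. Without single libraries the log2 fold change ranged from -0.063 to 0.021 for *Btbd1*, -0.22 to 0.061 for *Btbd10*, -0.20 to 0.079 for *Btbd16*, -0.13 to 0.00060 for *Cul1*, -0.27 to 0.026 for *Cul3*, -0.00090 to 0.16 for *Cul4a*, -0.22 to 0.022 for *Cul5* and -0.27 to 0.15 for *Cul7*. It ranged from -0.080 to 0.28 for *Kbtbd2*, -0.26 to 0.050 for *Kbtbd6*, -0.58 to 0.011 for *Kbtbd8*, -0.15 to 0.0026 for *Klhl10*, -0.078 to 0.016 for *Klhl11*, -0.44 to 0.42 for *Klhl13*, -0.20 to 0.034 for *Klhl15*, -0.047 to 0.26 for *Klhl4*, -0.089 to 0.17 for *Klhl7* and -0.076 to 0.25 for *Klhl9*.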
